A study of Mus musculus with 9 samples.

Results

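The galectin genes Lgals1, Lgals3, Lgals8 and Lgals9 and the galectin-binding protein gene Lgals3bp were followed through the RNA-seq libraries of cells sorted from the nucleus accumbens, the ventral part of the striatum. They are 5 genes of the 52636 in the deposited count table. They were found by symbol, and the group was chosen by the measured Lgals3bp levels, which separated the RES libraries from both other groups, so Lgals3bp in RES is described and not tested. The study compared 3 groups of 3 libraries, all from male C57BL/6 mice. The SUS and RES mice had self-administered cocaine, first under a fixed ratio schedule with at most 40 infusions and then on 10 consecutive days of 23 h progressive ratio sessions at 1.2 mg/kg per infusion, and the tissue was collected on day 3 after these sessions ended. The naive mice, titled WT, had received no cocaine. Cells were dissociated from punches pooled from 2 to 3 mice per condition and sorted by staining for ChAT, which synthesises acetylcholine. Whether each library had its own pool is not stated, so the p-values refer to the spread among libraries, which may be technical. The titles and the behavioural phenotype field name the SUS and RES groups in opposite ways. The title names are used here, without reading either group as susceptible or resilient.

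Galectins are lectins that bind beta-galactoside sugars on glycoproteins and glycolipids, inside the cell and, after secretion by a route without a signal peptide, on its surface. Galectin-1 forms homodimers, galectin-3 joins a sugar-binding domain to a repetitive tail through which it multimerises, and galectin-8 and galectin-9 carry sugar-binding domains in tandem. In the brain galectin-3 is known from activated microglia, galectin-1 from astrocytes and some neurons, galectin-8 as a sensor of damaged endosomes and lysosomes, and galectin-9 as a ligand of the immune receptor Tim-3. Lgals3bp encodes a secreted, heavily glycosylated scavenger receptor cysteine-rich protein that binds galectins and integrins, and it is known as a gene that interferon induces.

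Total counts ran from 4471675 to 11155730 per library. Background was taken as the count density of 1134 olfactory receptor genes, 6.07 to 21.2 counts per exonic kb, and levels that are compared between genes are given as multiples of it. The cholinergic label was not borne out by its markers, since 0 of 14 cholinergic genes averaged over 3 times background. Slc18a3, the vesicular acetylcholine transporter, was at 0.395 to 2.29 times background, and Chat itself at 0.877 to 7.86, the highest value being in SUS replicate 2. Markers of glia and of other neurons were present. All 18 microglial genes averaged over 3 times background, as did 11 of 13 astrocyte, 10 of 13 oligodendrocyte and 13 of 15 medium spiny neuron genes. The summed level of the 18 microglial genes was 4410, 330 and 5860 CPM (counts scaled to library size) in SUS replicates 1 to 3, 1850, 196 and 268 CPM in RES libraries, and 1950, 3430 and 378 CPM in naive libraries. In such mixtures, fewer cells of a type and less RNA per cell cannot be told apart.

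Lgals9 and Lgals3bp had the highest levels per length in the family. Averaged over the 9 libraries, Lgals9 stood at 5.35 times background, Lgals3bp at 4.79, Lgals8 at 3.07, Lgals1 at 2.31 and Lgals3 at 2.06. The ranges over libraries overlapped between neighbours in this order, from 2.4 to 9.57 for Lgals9, 1.52 to 11.6 for Lgals3bp, 1.62 to 4.21 for Lgals8, 1.11 to 3.65 for Lgals1 and 1.31 to 2.57 for Lgals3. Olfactory receptor genes are a low floor. Against the median density of 46 autosomal genes restricted to other tissues the same averages were 2.82 for Lgals9, 2.52 for Lgals3bp, 1.59 for Lgals8, 1.2 for Lgals1 and 1.06 for Lgals3, so Lgals1 and Lgals3 lay close to silent genes.

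**Figure D1:**
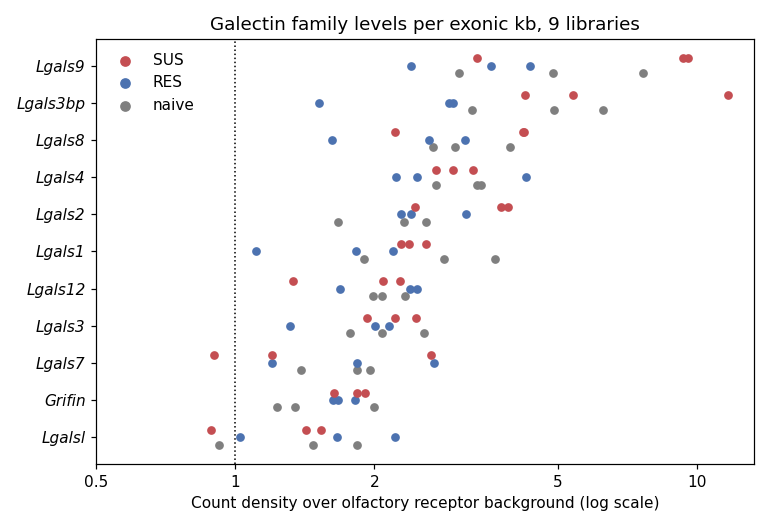
Count density of the 11 galectin family genes in the table, Lgals3bp included, as a multiple of the olfactory receptor background (log axis), with each point 1 library in SUS, RES or naive, genes ordered by their mean and the dotted line at background. Lgals9 and Lgals3bp reach 9.57 and 11.6 in SUS libraries, while the lowest points of Lgals7 and Lgalsl lie under 1.

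Promoters are shown for interferon elements, since Lgals3bp and Lgals9 are known interferon-induced genes. The windows span 250 bases before to 50 after the start site (RefSeq, GRCm38.p6), and 4 of the 5 genes had an entry, Lgals1 being the one without. Capitals mark matches on either strand to a paired GAAA (GAAA, any 2 bases, GAAA), the core of the interferon-stimulated response element, or to the shorter AANNGAAA bound by interferon regulatory factors, which each paired GAAA contains. The windows are shown for Lgals3bp (chr11:118401910-118402209, minus strand) and Lgals9 (chr11:78984875-78985174, minus strand), the members at the highest levels and the ones with a match.
Lgals3bp: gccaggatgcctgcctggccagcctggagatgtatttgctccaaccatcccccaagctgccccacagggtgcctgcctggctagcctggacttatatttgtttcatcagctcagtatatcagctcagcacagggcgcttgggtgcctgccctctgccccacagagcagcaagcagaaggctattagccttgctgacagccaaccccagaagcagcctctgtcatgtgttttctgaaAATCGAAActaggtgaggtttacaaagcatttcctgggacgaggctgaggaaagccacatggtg
Lgals9: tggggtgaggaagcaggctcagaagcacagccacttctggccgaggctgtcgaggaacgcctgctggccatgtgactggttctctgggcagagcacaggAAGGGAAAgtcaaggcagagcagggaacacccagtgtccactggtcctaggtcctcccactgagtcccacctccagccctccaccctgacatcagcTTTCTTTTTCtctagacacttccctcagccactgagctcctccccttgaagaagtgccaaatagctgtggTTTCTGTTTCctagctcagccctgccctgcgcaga
The Lgals9 window held the paired GAAA at 2 places, read there on the opposite strand, and a further AANNGAAA. The Lgals3bp window held AANNGAAA at 1 place, just before the start site, and no paired GAAA. Neither motif was in the windows of Lgals8 and Lgals3. Of all 32851 promoter windows 3.44% held the paired GAAA and 23.9% held AANNGAAA, the shorter motif being the one in Lgals3bp. Of the 16 interferon list genes with an entry, 8 (50%) held the paired GAAA and 12 (75%) held AANNGAAA, where 3.99% and 26.7% of all 27025 genes with an entry did. A match is a description of the sequence and not a site.

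Lgals3bp (ENSMUSG00000033880, chromosome 11, 118392751 to 118402092, minus strand, GRCm38) was highest in SUS and lowest in RES. It had 596, 217 and 287 counts in SUS replicates 1 to 3, 106, 66 and 76 in RES and 151, 108 and 296 in naive. After TMM scaling, which adjusts library sizes for composition, these were 64.6, 24.1 and 34.7 CPM in SUS, 18.6, 14.2 and 9.88 CPM in RES libraries, against 20.1, 32.6 and 27.4 CPM in naive. The 3 RES libraries were below each of the other 6, SUS and naive overlapped, and SUS replicate 1 stood highest of the 9. The nearest values on either side of this separation were 18.6 CPM in RES replicate 1 and 20.1 CPM in naive replicate 1. TMM factors ran from 0.743 in naive replicate 2 to 1.58 in RES replicate 3, the library with the lowest Lgals3bp CPM. Group means were 41.1 ± 21 CPM in SUS, 14.2 ± 4.35 CPM in RES and 26.7 ± 6.28 CPM in naive (SD, n = 3 each). Of the 39210 genes tested, 249 (0.635%) had RES libraries below all SUS and all naive libraries, and nothing is read from this share because the gene was chosen for the pattern. Per length, Lgals3bp was at 11.6, 4.25 and 5.4 times background in SUS, 2.96, 2.9 and 1.52 in RES and 3.25, 6.25 and 4.91 in naive, with the same separation.

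**Figure D2:**
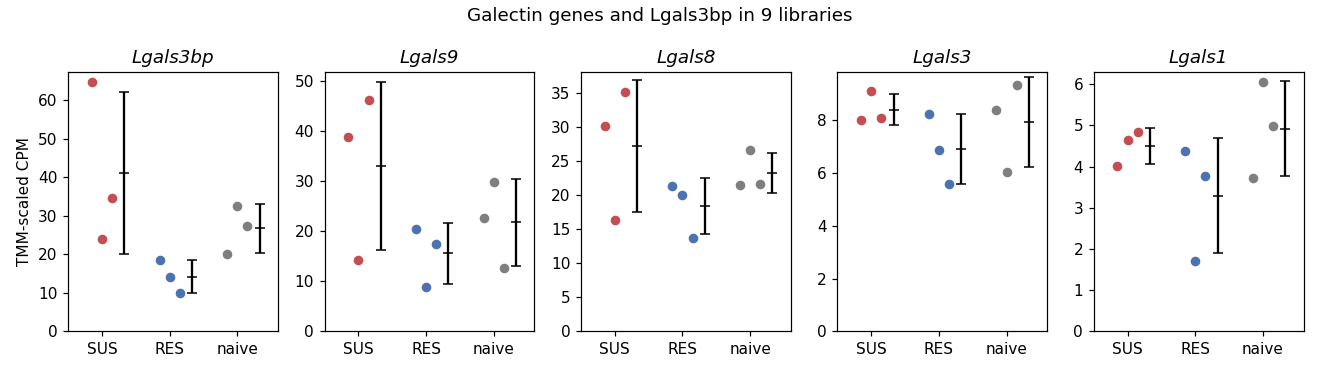
TMM-scaled CPM (vertical axis, from 0) of the 5 genes in the SUS, RES and naive libraries, with points for replicates 1 to 3 from left to right and the bar at the right of each group giving the mean and SD of 3 libraries. For Lgals3bp the RES points, 9.88 to 18.6 CPM, lie under every other point, and for the 4 galectins SUS and RES overlap.

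Fitted log2 fold changes of Lgals3bp, given without a test where RES libraries enter, were 1.54 (SE 0.358) for SUS against RES, -0.91 (SE 0.358) for RES against naive and 0.07 (SE 0.448) for all cocaine libraries against naive. SUS against naive does not use the RES libraries in the difference itself, and there Lgals3bp had a log2 fold change of 0.63 (SE 0.347) and did not pass the edgeR quasi-likelihood test (adjusted p = 1.00). Of this difference a large part came from SUS replicate 1, without which it was 0.14. Marker levels moved with Lgals3bp in part of the libraries. The highest Lgals3bp values were 64.6 CPM in SUS replicate 1, 34.7 CPM in SUS replicate 3 and 32.6 CPM in naive replicate 2. These libraries also had the highest microglial sums, at 4410, 5860 and 3430 CPM. SUS replicate 1 also had the highest summed level of 13 oligodendrocyte genes, at 2620 CPM. The sum was 618 and 923 CPM in the other SUS libraries, 923, 605 and 316 CPM in RES libraries, and 921, 1590 and 444 CPM in naive libraries. RES replicate 1 and naive replicate 1, with close microglial sums of 1850 and 1950 CPM, had 18.6 and 20.1 CPM of Lgals3bp. Among the libraries with little microglial RNA, SUS replicate 2 had 24.1 CPM, RES replicates 2 and 3 had 14.2 and 9.88 CPM, and naive replicate 3 had 27.4 CPM. The part of microglial and oligodendrocyte RNA in the Lgals3bp differences was not tested.

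Lgals9 (ENSMUSG00000001123, chromosome 11, 78962974 to 78984946, minus strand) was high in the libraries that were rich in microglial RNA, whichever their group. It had 359, 128 and 382 counts in SUS, 117, 41 and 135 in RES and 170, 99 and 138 in naive. These corresponded to 38.9, 14.2 and 46.2 CPM in SUS, 20.5, 8.81 and 17.6 CPM in RES libraries, against 22.7, 29.9 and 12.8 CPM in naive. The 5 libraries over 20 CPM were SUS replicates 1 and 3, RES replicate 1 and naive replicates 1 and 2, which were also the 5 with a microglial sum of 1850 CPM or more, and each pair of groups overlapped. The microglial receptor gene Cx3cr1 had 548, 26.6 and 700 CPM in SUS, 225, 11.2 and 19 CPM in RES libraries, against 229, 438 and 25.8 CPM in naive. Tmem119, a membrane protein gene of homeostatic microglia, had 124, 7.76 and 192 CPM in SUS, 41, 3.01 and 5.85 CPM in RES libraries, against 60.9, 87.7 and 9.99 CPM in naive. Both had the same 5 libraries on top, with the part of microglial RNA in the Lgals9 differences not tested. The log2 fold change of Lgals9 was 1.07 (SE 0.419) for SUS against RES, which did not pass (edgeR adjusted p = 0.87). It was 0.63 (SE 0.415) for SUS against naive and -0.45 (SE 0.424) for RES against naive, neither past the test (adjusted p = 1.00 and 1 by edgeR). Without SUS replicate 3 the value for SUS against naive was 0.31, and without naive replicate 2 that for RES against naive was -0.155.

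**Figure D3:**
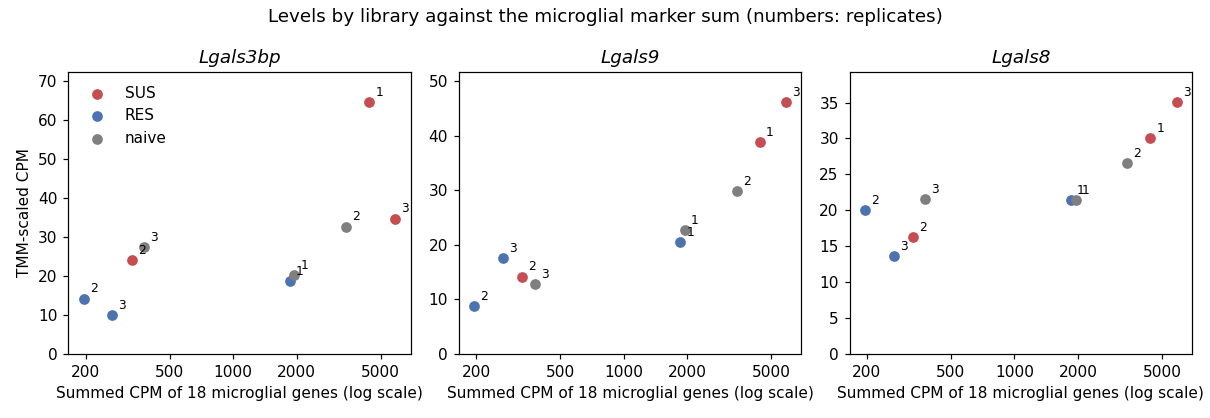
TMM-scaled CPM of Lgals3bp, Lgals9 and Lgals8 (vertical axes, from 0) against the summed CPM of 18 microglial genes (log axis), 1 point per library of SUS, RES and naive, numbered by replicate. Lgals9 lies over 20 CPM in each of the 5 libraries at the right. Lgals3bp is highest in SUS replicates 1 and 3 and naive replicate 2, the libraries furthest to the right. It has 18.6 CPM in RES replicate 1 at the right and 27.4 CPM in naive replicate 3 at the left.

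Lgals8 (ENSMUSG00000057554, chromosome 13, 12439415 to 12464944, minus strand) varied less. It had 30.1, 16.3 and 35.1 CPM in SUS, 21.4, 20 and 13.7 CPM in RES libraries, against 21.5, 26.6 and 21.6 CPM in naive, from 88 to 290 counts. SUS replicate 3 was highest and SUS replicate 2 second lowest of the 9, so SUS and RES overlapped, while the RES libraries lay just under the naive ones, by 21.4 against 21.5 CPM at the nearest. RES libraries lay below all naive libraries in CPM in 2.82% of the genes tested. As multiples of background the Lgals8 values of RES and naive overlapped, with RES replicate 2 at 3.151 and naive replicate 1 at 2.675. The 3 highest Lgals8 values, in SUS replicates 3 and 1 and naive replicate 2, were in the 3 libraries with the highest microglial sums, 5860, 4410 and 3430 CPM, and the part of microglial RNA in the Lgals8 values was not tested. The log2 fold change was 0.57 (SE 0.29) for SUS against RES (edgeR adjusted p = 0.87) and -0.34 (SE 0.293) for RES against naive (adjusted p = 1). These were 0.34 without SUS replicate 3 and -0.16 without RES replicate 3. The gene overlaps Heatr1 on the opposite strand, and the strand setting of the counting is not stated, so reads of the pair may be mixed.

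Lgals3 and Lgals1 were low in each library. Lgals3 (ENSMUSG00000050335, chromosome 14, 47367751 to 47386160, plus strand) had 8.01, 9.09 and 8.1 CPM in SUS, 8.24, 6.87 and 5.59 CPM in RES libraries, against 8.4, 6.05 and 9.35 CPM in naive. The groups overlapped, and the libraries rich in microglial RNA were not the ones with the most Lgals3, naive replicate 3 being highest and SUS replicate 2 next. Lgals1 (ENSMUSG00000068220, chromosome 15, 78926725 to 78930465, plus strand) had 37, 42 and 40 counts in SUS, 25, 8 and 29 in RES and 28, 20 and 54 in naive. In CPM these were 4.01, 4.66 and 4.84 in SUS, 4.38, 1.72 and 3.77 in RES and 3.73, 6.05 and 5 in naive, again with overlap. The count of 8 in RES replicate 2 has an exact 95% Poisson interval of 3.45 to 15.8, which covers counting error only. Reads of Lgals1 may be shared with processed pseudogenes. Lgals1-ps1 had 21, 18 and 1 counts in SUS, 9, 13 and 22 in RES and 21, 5 and 26 in naive, and Lgals1-ps2 was at 0 in all 9 libraries, so the Lgals1 values are uncertain. For SUS against RES the log2 fold changes were 0.29 (SE 0.249) for Lgals3 and 0.42 (SE 0.351) for Lgals1, neither past the edgeR test (adjusted p = 0.943 and 0.939). The Lgals1 value was 0.125 without RES replicate 2, the library with 8 counts, and the Lgals3 value was 0.146 without RES replicate 3.

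All 5 genes passed the filter on low counts, and none of the 4 galectins passed the test in any of the 4 comparisons. The share of genes called was 0% of 39210 in each comparison. If no gene differed, a share of 0.05 of the 39210 genes would be expected at an unadjusted p under 0.05. Counts at that limit are given as a description. By an unadjusted p under 0.05, edgeR had 2227 genes for SUS against RES, 1225 for SUS against naive, 361 for RES against naive and 541 for cocaine against naive. By DESeq2 and by limma-voom (with weights per sample) the calls were 0 as well, with 1885 and 3367 genes at an unadjusted p under 0.05 for SUS against RES, 931 and 3225 for SUS against naive, 264 and 1671 for RES against naive and 484 and 1697 for cocaine against naive. For SUS against RES the 5 members had log2 fold changes of 0.29 to 1.54 (median 0.57), where 51.2% of all genes tested were positive and their median was 0.01. For RES against naive they ran from -0.91 to -0.24 (median -0.45, all genes -0.02, 47.4% positive). These comparisons share libraries, and with Lgals3bp chosen for this contrast the common sign is a description. For SUS against naive 4 of 5 were positive (median 0.23, all genes 0.02, 52.2% positive), the exception being Lgals1 at -0.10 (SE 0.34). Complete separation of the libraries in CPM was counted for comparison. Lgals3bp was chosen for its separation in RES, so in SUS against RES and RES against naive it is not counted against these shares. For SUS against RES, SUS lay above all RES libraries in 3.41% of genes tested and below them in 4.22%, with none of the 4 galectins in either. For SUS against naive the shares were 3.85% above and 4.15% below, with 0 members in either. For RES against naive they were 3.31% above and 2.82% below, and of the 4 galectins Lgals8 lay below. For cocaine against naive they were 0.617% above and 0.553% below, with 0 members. For cocaine against naive the fold changes ran from -0.29 for Lgals1 to 0.19 for Lgals9, each within 1 SE of 0 (edgeR adjusted p = 1 for each galectin).

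**Figure D4:**
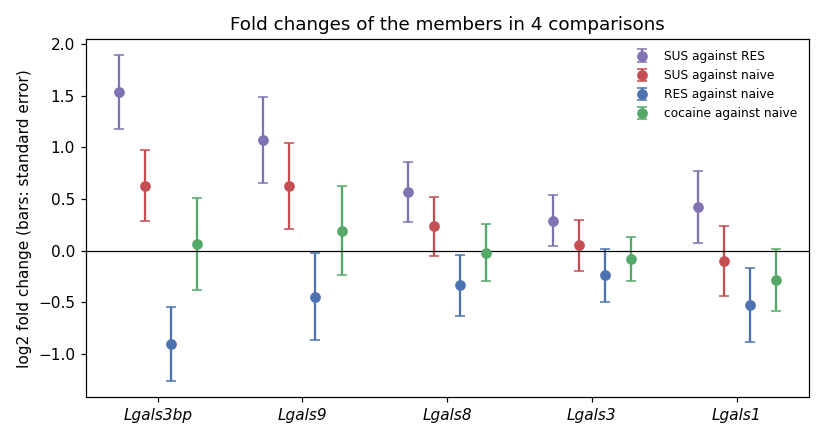
Log2 fold changes (vertical axis) of the 5 genes in 4 comparisons, with bars of 1 standard error and the line at 0. The values for SUS against RES lie between 0.29 and 1.54 and those for RES against naive between -0.91 and -0.24, and those for cocaine against naive lie on both sides of 0.

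Other genes of the galectin family were mostly near background. Lgals2, Lgals4, Lgals7, Lgals12, Lgalsl and Grifin were in the table, and 1 of these 6 averaged over 3 times background. Lgals4, known from the gut, was at 3.04 times background, with 14.7, 12.5 and 15.5 CPM in SUS, 11.4, 17 and 13.1 CPM in RES libraries, against 13.7, 14.2 and 15.5 CPM in naive. Lgals12, known from fat tissue, averaged 10.7 ± 2.15 CPM in SUS, 12.5 ± 2.86 CPM in RES and 11.8 ± 1.07 CPM in naive (SD, n = 3 each). Lgalsl, a galectin-like gene, averaged 10.7 ± 2.23 CPM in SUS, 13.5 ± 3.33 CPM in RES and 11.7 ± 4.15 CPM in naive. In each of these genes the groups overlapped. For SUS against RES the median over the 6 genes was -0.07 on the log2 scale, with 3 positive and 3 negative, and for RES against naive it was 0.16, with 5 positive. None passed the edgeR test.

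Proteins that galectins bind, and the enzymes that build the sugars they recognise, had mostly positive fold changes for SUS against RES, and none passed the test. Of 25 counter-receptors and partners, 22 were positive (median log2 fold change 0.52), and for RES against naive 22 were negative (median -0.25). Without RES replicate 3 these medians were 0.31 and -0.05. Itgb1, an integrin subunit that binds galectins, averaged 91.1 ± 49 CPM in SUS, 39.4 ± 20.8 CPM in RES and 57.8 ± 22.9 CPM in naive (SD, n = 3 each). Tgfbr2, a TGF-beta receptor on the list, averaged 101 ± 65.7 CPM in SUS, 33.9 ± 21.2 CPM in RES and 62.8 ± 38.2 CPM in naive. Trem2, a microglial receptor that galectin-3 is known to bind, averaged 55.7 ± 42 CPM in SUS, 18.1 ± 11.3 CPM in RES and 32.4 ± 18.5 CPM in naive. Their log2 fold changes for SUS against RES were 1.21 (SE 0.487), 1.57 (SE 0.604) and 1.61 (SE 0.639), each with an edgeR adjusted p = 0.87. In all 3 genes SUS replicate 2 lay far under the other SUS libraries, at 36.3, 26.3 and 11.8 CPM, as did the microglial sum, whose part in these values was not tested.

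Of 21 glycan enzymes, 18 were positive for SUS against RES (median 0.27), and none passed the edgeR test. SUS libraries lay above all RES libraries in 3 of them, Mgat1, Mgat4b and St3gal1, where 3.41% of all genes did, and below in 1, B3gnt5, where 4.22% did. These genes were named after their values were seen. Without RES replicate 3 the median was 0.11. Mgat4a, which adds a branch to N-glycans, averaged 111 ± 55.5 CPM in SUS, 47.7 ± 17.8 CPM in RES and 72.3 ± 29.5 CPM in naive. B4galt1, which adds the galactose that galectins bind, averaged 35.7 ± 18.8 CPM in SUS, 15.6 ± 7.48 CPM in RES and 24.9 ± 9.93 CPM in naive. St3gal6, a sialyltransferase, averaged 45.8 ± 21.1 CPM in SUS, 24.8 ± 10 CPM in RES and 31.3 ± 13.1 CPM in naive. The log2 fold changes for SUS against RES were 1.22 (SE 0.444), 1.19 (SE 0.442) and 0.89 (SE 0.408), with an edgeR adjusted p = 0.87 each. Mean levels were 2.94 times background for Mgat4a, 2.92 for B4galt1 and 2.69 for St3gal6. As with Lgals9, SUS replicate 2 had the lowest SUS value of each, 48.8, 14.7 and 22.2 CPM, against 131, 41.3 and 52.5 CPM in SUS replicate 1.

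Genes of microglia responding to damage, of which Lgals3 is a known marker, were positive for SUS against RES in 13 of 18 cases and negative in 5 (median 0.43). For RES against naive 15 were negative (median -0.30), and 0 passed. Separation went both ways. Spp1 lay below all naive libraries in RES (2.82% of all genes did), in SUS (4.15%) and in all cocaine libraries (0.553%). Gpnmb lay above them in RES (3.31%), and Timp2 above all RES libraries in SUS (3.41%). Spp1 and Gpnmb were named after their values were seen. The genes described next are those with the smallest p, all positive for SUS against RES. Tyrobp, the adaptor of Trem2, averaged 42.2 ± 29.3 CPM in SUS, 13.5 ± 10.6 CPM in RES and 25.4 ± 13 CPM in naive. The lysosomal glycoprotein gene Cd68 averaged 47.9 ± 35.6 CPM in SUS, 13.8 ± 10.8 CPM in RES and 24.7 ± 17.9 CPM in naive, and the protease inhibitor gene Timp2 averaged 87.8 ± 32.2 CPM in SUS, 42.7 ± 15.7 CPM in RES and 69.3 ± 19.5 CPM in naive. Their SUS against RES log2 fold changes were 1.64 (SE 0.62), 1.79 (SE 0.728) and 1.04 (SE 0.378) for Tyrobp, Cd68 and Timp2. The median of the list was 0.16 without SUS replicate 3. Genes that handle damaged lysosomes, the process that galectin-8 and galectin-3 take part in, were positive in 9 of 15 cases for SUS against RES and negative in 6 (median 0.31). The median was 0.10 without RES replicate 3. The genes given from this list, all positive, are likewise those with the smallest p. Gabarap, which builds autophagosomes, averaged 33 ± 19.8 CPM in SUS, 14.5 ± 6.15 CPM in RES and 21.7 ± 6.86 CPM in naive, and Tfe3, a transcription factor of lysosomal genes, 62.2 ± 35 CPM in SUS, 27 ± 8.52 CPM in RES and 42 ± 19.7 CPM in naive. Tfeb, a relative of Tfe3, averaged 21.1 ± 7.18 CPM in SUS, 13.6 ± 0.529 CPM in RES and 18.4 ± 4.51 CPM in naive. Mean levels were 6.08 times background for Gabarap, 2.33 for Tfe3 and 1.54 for Tfeb. In SUS replicate 2, where the microglial sum was 330 CPM against 4410 and 5860 CPM in SUS replicates 1 and 3, Tyrobp had 9.64, Cd68 9.31, Gabarap 13 and Tfe3 23.5 CPM, each the lowest of its SUS values. The part of microglial RNA in the values of both lists was not tested. The other scavenger receptor cysteine-rich genes, the family of Lgals3bp, were split evenly, with 7 of 14 positive for SUS against RES (median -0.02). Of these Loxl2, a lysyl oxidase, was at background (0.99 times), with 7.16 ± 2.24 CPM in SUS, 13.3 ± 1.85 CPM in RES and 12.1 ± 0.265 CPM in naive, a direction opposite to that of Lgals3bp. Cd5l and Cd5, known from macrophages and lymphocytes, had log2 fold changes of -0.56 (SE 0.316) and 0.56 (SE 0.32). Their mean levels were low as well, at 2.1 times background for Cd5l and 0.937 times for Cd5. None of the genes of these lists passed, and their smallest adjusted p by edgeR was 0.87.

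Interferon response genes had a positive fold change for SUS against RES in 24 of 24 cases, with a median of 0.49. None of them passed the test, and 4 of the 24 averaged over 3 times background. In 7 of the 24, SUS libraries lay above all RES libraries, where 3.41% of all genes tested did. For SUS against naive 20 of 24 were positive (median 0.40), with 4 above all naive libraries where 3.85% of all genes were, namely Ifi27, Ifi44, Ifi35 and Xaf1. For RES against naive 16 were negative (median -0.16), and separation went both ways, with Ifit3 and Ifi44 above all naive libraries (3.31% of all genes) and Ifi27 and Trim25 below them (2.82%). Without SUS replicate 1 the median for SUS against naive was 0.20. Of these genes, Ifi44, Ifi35, Xaf1 and Ifit3 were named after their values were seen. Ifi27, Trim25 and Irf9 were picked as the list genes of at least 5 CPM with the smallest p over the 4 comparisons. Their group differences are therefore descriptions. Ifi27 had 21.2, 15.7 and 18 CPM in SUS, 11.2, 12 and 8.71 CPM in RES libraries, against 13.1, 13 and 12.9 CPM in naive. Its SUS libraries were above the other 6 and its RES libraries below the other 6, an order of groups like that of Lgals3bp but with SUS apart from naive. Its log2 fold change for SUS against RES was 0.79 (SE 0.22, edgeR adjusted p = 0.87), and its mean level was 4.72 times background. Trim25, a ubiquitin ligase of the antiviral response, had 29.8, 19.3 and 45.7 CPM in SUS, 18.9, 18 and 14.7 CPM in RES libraries, against 19.7, 25.1 and 19.1 CPM in naive. Irf9, a subunit of the transcription factor complex known to bind interferon-stimulated response elements, averaged 38.4 ± 13.9 CPM in SUS, 20.9 ± 5.18 CPM in RES and 25.6 ± 7.05 CPM in naive. Mean levels were 1.99 times background for Trim25 and 2.59 for Irf9. Microglial, oligodendrocyte and interferon genes were thus all positive for SUS against RES, with 18 of 18 microglial genes (median 2.03) and 13 of 13 oligodendrocyte genes (median 1.11), and the part of cell makeup in the interferon values was not tested.

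**Figure D5:**
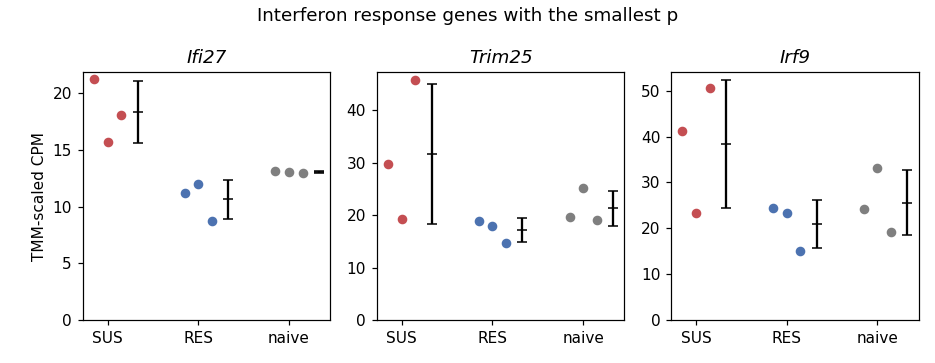
TMM-scaled CPM (vertical axis, from 0) of Ifi27, Trim25 and Irf9 in SUS, RES and naive, with points for replicates 1 to 3 from left to right and the mean and SD of 3 libraries at the right of each group. Ifi27 runs from 15.7 to 21.2 CPM in SUS and from 8.71 to 12 CPM in RES, while SUS and naive overlap for Irf9.

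The genes most like each member were looked up by the Pearson correlation of log2 CPM over the 9 libraries. Compared were 12944 genes of at least 10 CPM. Predicted, clone-named and mitochondrially encoded genes and IDs without a symbol were left out of the 14443 tested genes at this level. These correlations are descriptions over libraries that differ in cell makeup, and they carry no p because the genes were picked as the highest. The genes most like Lgals9 were Trem2 (r = 0.989), Tent5a (0.989), Lcp2 (0.989), B4galt1 (0.987) and Tnfrsf11a (0.986), of which Trem2 is a microglial receptor and Lcp2 a signalling adaptor of blood and immune cells. Cx3cr1 had r = 0.93 with Lgals9. The genes most like Lgals8 were P4hb (0.988), Rap2c (0.987), Myo1c (0.987), Bcap31 (0.987) and Midn (0.987), of which P4hb and Bcap31 encode proteins of the endoplasmic reticulum. The genes most like Lgals3bp were Nipa1 (0.966), Gnpda1 (0.952), Fbxo45 (0.95), Anxa5 (0.948) and Trim34a (0.946). The spread of Nipa1 was smaller than that of Lgals3bp, as it ran from 12 to 15.6 CPM in SUS, from 8.06 to 9.46 CPM in RES and from 10.1 to 12.9 CPM in naive, at 1.77 times background on average. Anxa5, a phospholipid-binding annexin, was the only one of these 5 over 3 times background, at 4.25, with 21.8, 13.3 and 19.1 CPM in SUS, 15.4, 12 and 9.36 CPM in RES libraries, against 13.3, 17.2 and 15.9 CPM in naive. Between members, Lgals3bp had r = 0.802 with Lgals8, 0.661 with Lgals9, 0.462 with Lgals1 and 0.408 with Lgals3, and Cx3cr1 had r = 0.693 with Lgals3bp. For Lgals8, r was 0.816 with Cx3cr1, 0.836 with Tmem119 and 0.845 with C1qa, a complement gene of microglia. By likeness to Lgals8 these ranked 1996, 1776 and 1651 of the 12944 genes, so many other genes were more like it. Cx3cr1 ranked 2256 for Lgals3bp and 269 for Lgals9.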

How the data were processed

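RNA sequencing gave 9 libraries, 3 each of SUS, RES and naive mice, grouped by sample title. The authors deposited raw counts per Ensembl gene, whole numbers with no scaling. The submitters' processing notes name the build GRCm38 and the tools STAR 2.5.2b, FastQC, DESeq2, DESeq and HTSeq, with no roles. Strand setting and annotation release are not given in the sources used here. GENCODE mouse release 21 gave symbol, position and exonic length for 52489 of 52636 IDs. After filterByExpr and TMM scaling (trimmed mean of M values), genes were tested by the quasi-likelihood F test of edgeR 4.0.16 (R 4.3.3, limma 3.58.1), in 1 model of 3 groups and, for cocaine against naive, 1 of 2 groups, with Benjamini-Hochberg adjustment over all genes at 0.05. Log2 CPM used a prior count of 2. Each SE is the absolute log2 fold change divided by the square root of F. DESeq2 1.42.0, limma-voom, other scalings and filters, and leaving out each library were alternatives.

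Named were, from each of 7 pathway lists, up to 3 genes of at least 5 CPM with the smallest p over the 4 comparisons, and, for Lgals3bp and each galectin over 3 times background, the 5 genes of at least 10 CPM most correlated with it. Predicted, clone-named and mitochondrially encoded genes and IDs without a symbol were left out of the correlations. Of the cell type lists, microglial and defining cholinergic genes were named. The members and lists were chosen with earlier results of these data known, and the promoter motifs after the sequences were read. Intervals cover counting error only.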

Additional observations from a re-analysis of the deposited data

Results flagged for a closer look

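Lgals1 in RES replicate 2 was at 1.72 CPM, far from the other 5 cocaine libraries, which ran from 3.77 to 4.84 CPM. Its gap to the nearest library was 0.659 of the range of all 6 libraries, above the 95% critical value of Dixon's test. Of the 5 genes looked at this way 1 was flagged, and chance flags about 1 in 20. The value rests on 8 counts.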

How the results depend on the processing

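No gene was called in any of the 4 comparisons under any of the alternatives run, 0 calls in each. The smallest adjusted p among them was 0.0579, by DESeq2 for SUS against naive. Of 335 alternative fold changes of the 5 members, 12 turned in tested comparisons, each of a value within 1 SE of 0. The other 323 kept their direction or, for the untested Lgals3bp contrasts, moved by less than 1 SD between replicates. Among these Lgals3bp in cocaine against naive has no settled sign, at -0.0569 with the replicate block and -0.38 without SUS replicate 1. Lgals3 in SUS against naive turned to -0.0346 with limma-voom. With single libraries left out, Lgals1 in SUS against naive ran from -0.276 to 0.0296 and Lgals3 from -0.0854 to 0.188, and in cocaine against naive Lgals3 ran from -0.21 to 0.0565, Lgals8 from -0.179 to 0.0918 and Lgals9 from -0.0958 to 0.472. Lgals4 in RES against naive ran from -0.221 to 0.0635. Lgals3bp ran from 1.04 (without SUS replicate 1) to 1.81 for SUS against RES and from -1.14 to -0.692 for RES against naive, and Lgals9 from 0.754 to 1.43, Lgals8 from 0.344 to 0.832, Lgals1 from 0.125 to 0.626 and Lgals3 from 0.146 to 0.419 for SUS against RES. For RES against naive Lgals9 ran from -0.736 to -0.155, Lgals8 from -0.451 to -0.156, Lgals1 from -0.734 to -0.232 and Lgals3 from -0.371 to -0.098. With the replicate number as a block, which the labels do not tie to shared animals or days and whose same-numbered libraries correlated by -0.17 to 0.172, 0 genes were called and Lgals3bp was at 1.51 for SUS against RES and -0.98 for RES against naive. Scaled to olfactory receptor counts, an alternative chosen after seeing the data, Lgals3bp was at 1.54 and -0.967. Of 469 alternative list medians 468 moved by less than 1 SD, and that of interferon genes in SUS against naive was 0.203 without SUS replicate 1. Within that SD, leaving out single libraries still moved medians for SUS against RES by over 1.5 times, to between 0.309 and 0.712 for counter-receptors, 0.109 and 0.428 for glycan enzymes, 0.164 and 0.668 for genes of microglia responding to damage and 0.101 and 0.474 for lysosome genes. Those of the other galectin family genes (-0.167 to 0.0684) and of scavenger receptor cysteine-rich genes (-0.142 to 0.0484) changed sign. For RES against naive, counter-receptors ran from -0.461 to -0.0541 and lysosome genes from -0.368 to -0.0254. Depth limits Lgals1 and Lgals3 most, with 8 to 54 and 20 to 101 counts per library.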
